A study of Mus musculus with 15 samples.

Results

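Platelet-derived growth factors (PDGFs) and their receptors form a family of 6 genes, and all 6 were followed by gene symbol in the deposited table of 44674 genes. The members were the 4 ligands Pdgfa, Pdgfb, Pdgfc and Pdgfd and the 2 receptors Pdgfra and Pdgfrb. Bulk RNA-seq of 15 libraries covered 8 conditions of mouse cells that had been cultured and then sorted. The study asked how endothelial cells of the bone marrow (BMECs) keep their identity in culture, and it split them by endomucin (Emcn), a sialomucin of the endothelial surface. Emcn+ and Emcn- cells came from primary whole bone marrow (WBM) cultures in endothelial medium, called P0, with 2 libraries each. Emcn- cells of passages P1, P2 and P3 had 2 libraries each and those of P4 had 1. Lung cells also had 2 libraries, and by the paper they were Emcn- cells of lung cultures, which the labels do not state. These groups came from adult Tie2-CreERT2;Rosa26-tdTomato mice given tamoxifen, in which the Tie2 (Tek) promoter drives an inducible Cre, and live CD45- tdTomato+ cells were sorted. Bone marrow mesenchymal stromal cells (BM MSC), with 2 libraries, were the tdTomato+ cells of marrow cultures from Osx-Cre;Rosa26-tdTomato mice, in which the promoter of osterix, a factor of the bone-forming lineage, drives Cre. These stromal cells grew in a different medium. The labels give the genotype of every sample as WT. Usually 1 mouse gave 1 culture dish, and animals were used regardless of sex.

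In the GENCODE M21 annotation of GRCm38, Pdgfa (ENSMUSG00000025856) lies at chr5:138976014-138997370 on the minus strand and Pdgfb (ENSMUSG00000000489) at chr15:79995874-80014977 on the minus strand. Pdgfc (ENSMUSG00000028019) lies at chr3:81036416-81214040 and Pdgfd (ENSMUSG00000032006) at chr9:6168584-6378850, both on the plus strand. The receptor genes are Pdgfra (ENSMUSG00000029231) at chr5:75152292-75198215 and Pdgfrb (ENSMUSG00000024620) at chr18:61045150-61085061, also on the plus strand. Values were counted over whole genes, so no exon or UTR can be told apart. Exons of Pdgfa share 813 bases with an antisense gene, 6330403L08Rik, which had between 67 and 918 counts per library. Whether the counting used the strand of the reads is not given in the sources used here, so Pdgfa values may hold reads of this neighbour. The antisense models that overlap exons of Pdgfc and Pdgfra had at most 5 counts in any library.

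PDGFs are secreted as dimers that bind a pair of receptor tyrosine kinases on mesenchymal cells. PDGF-B from endothelial cells is known for recruiting pericytes, which carry PDGFRβ, to growing vessels, while PDGF-A acts mainly through PDGFRα. PDGF-C and PDGF-D are secreted in latent form and need a protease to remove their CUB domain before they bind. In bone marrow, PDGFRα and PDGFRβ are widely used to mark stromal cells.

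For 3 members with different patterns between the P0 populations, the 250 bases before the first transcribed base are shown, from RefSeq on GRCm38.p6 and in the direction of the gene. Pdgfd was higher in P0 Emcn+ cells, Pdgfra was higher in P0 Emcn- cells, and Pdgfa was not called in either direction. Capitals mark matches, on either strand, to the TATA box (TATAAA), to the CCAAT box, to the GC box (GGGCGG) or to a core bound by ETS factors (AGGAAG), and no match overlaps another. The table holds another start for Pdgfa, which is not shown.
Pdgfd, chr9:6168236-6168485, plus strand: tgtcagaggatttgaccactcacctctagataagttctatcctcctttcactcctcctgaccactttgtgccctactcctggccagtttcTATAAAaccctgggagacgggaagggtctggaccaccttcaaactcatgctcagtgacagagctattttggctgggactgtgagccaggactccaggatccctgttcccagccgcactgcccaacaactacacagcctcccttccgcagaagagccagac
Pdgfra, chr5:75152001-75152250, plus strand: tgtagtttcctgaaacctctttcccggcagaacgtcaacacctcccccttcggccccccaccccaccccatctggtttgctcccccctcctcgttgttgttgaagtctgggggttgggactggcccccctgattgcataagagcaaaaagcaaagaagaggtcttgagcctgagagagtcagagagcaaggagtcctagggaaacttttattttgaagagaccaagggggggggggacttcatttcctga
Pdgfa, chr5:138994945-138995194, minus strand: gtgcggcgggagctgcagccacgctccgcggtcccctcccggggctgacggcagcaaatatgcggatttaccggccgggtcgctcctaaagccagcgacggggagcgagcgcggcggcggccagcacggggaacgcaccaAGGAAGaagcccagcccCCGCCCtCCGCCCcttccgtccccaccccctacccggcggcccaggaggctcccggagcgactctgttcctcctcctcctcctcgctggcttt

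The Pdgfa stretch was the richest in GC, at 72.4% with 28 CpG pairs, against 53.6% and 3 CpG pairs for Pdgfd and 54.4% and 4 for Pdgfra. Medians over the 32851 promoters of the same length were 52.4% GC and 6 CpG pairs. Pdgfd held a TATAAA that starts at position -160 from its first transcribed base, and 12.4% of all promoters held that motif on either strand. Pdgfa held GGGCGG on the opposite strand at -93 and -86 and AGGAAG at -110, motifs found in 32.7% and 29.5% of all promoters. Pdgfra held none of the 4 in these 250 bases, and CCAAT, which none of the 3 held, occurred in 33.8% of all promoters.

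Library totals ran from 9914620 to 39718807 counts, so that the 3 counts taken as the limit of a count of 0 stood for 0.0755 to 0.303 CPM (counts-per-million, here on the library's total count). Such limits and intervals from counts cover counting error only. The labels give 4 batches. Both P0 populations and lung had their first replicates in one batch and their second replicates in another. The first replicates of P1 to P3 shared a batch with P4, and the second replicates shared another with both BM MSC libraries. Batch and condition therefore cannot be told apart wherever P0 or lung is set against passaged cells or BM MSC. Differences were tested on all 15 libraries with edgeR's quasi-likelihood test, and each adjusted p below is Benjamini-Hochberg adjusted over 19401 genes. A member was called where the adjusted p was under 0.05 and the log2 fold change was beyond 1.5 in either direction. The study's methods set the same numbers but put the fold limit on fold changes shrunken by ashr in DESeq2, whereas here it is on edgeR's fold changes without shrinkage. Where shrinkage takes the call of a member under the limit, the shrunken value is given. For genes other than the 6 members no shrunken value is given. All 6 members passed the filter on low counts. Fold changes are log2 and are given with their standard error (SE).

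The sorted populations were checked against 8 endothelial markers, namely Cdh5, Pecam1, Tek, Tie1, Kdr, Erg, Cldn5 and Emcn. Among them, Emcn was the marker of the sort, so its difference between the P0 populations was set in advance, and the Tek promoter drives the Cre. The levels of the 8 markers summed to 11694 and 9731 CPM in the P0 Emcn+ libraries, against 251 and 67.1 CPM in the Emcn- libraries of P0. Over the 7 passaged libraries the sum was 43.1 to 69.0 CPM, of which Tek, Kdr and Pecam1 held the most. In those libraries Tek had 14.95 to 40.3 CPM, Kdr 7.96 to 30.1 CPM and Pecam1 10.7 to 14.3 CPM, so these markers were still detected. Emcn had 0.925 to 3.68 CPM. Cdh5 (VE-cadherin) had 0.0564 to 2.33 CPM and Cldn5 was at 0 to 0.430 CPM. Tie1 and Erg reached at most 0.446 and 0.682 CPM. Some endothelial markers, but not all, were thus at or near 0 in cells labelled as BMECs. The sum of 7 fibroblast and stromal markers ran the other way: P0 Emcn+ libraries summed to 216 and 302 CPM, P0 Emcn- libraries to 20987 and 15631 CPM and passaged libraries to 3992 to 5853 CPM. The sum of 5 osteolineage markers was 126 to 211 CPM in BM MSC, whose Cre is driven by an osteolineage promoter. It was 51.9 to 185 CPM in P0 Emcn- cells, against 4.31 to 6.53 CPM in P0 Emcn+ cells. Ibsp alone made 137 CPM of the 185 CPM, and 2.06 CPM in the other P0 Emcn- library. Runx2, Sp7, Alpl and Bglap each averaged less in P0 Emcn- cells than in BM MSC (Alpl 9.54 against 77.6 CPM). In bulk samples, fewer cells of a type and less RNA per cell cannot be told apart.

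The ligand and receptor genes were split between the 2 populations of the P0 culture. Pdgfb and Pdgfd were higher in P0 Emcn+ cells, and Pdgfra and Pdgfrb were higher in P0 Emcn- cells, so that 4 of the 6 members were called. Of all genes tested 19.2% were called, 7.79% as higher and 11.4% as lower in P0 Emcn+ cells. Against P0 Emcn- cells, lung cells had 2 members called, Pdgfc and Pdgfd, both higher, beside 3.83% of all genes called and 2.13% called as higher. BM MSC had 4 members called against P0 Emcn- cells, with Pdgfa, Pdgfc and Pdgfd higher and Pdgfra lower, beside 18.7% of all genes (11.3% higher and 7.45% lower). P1 cells had 1 member called against P0 Emcn- cells, Pdgfd, which was higher, beside 8.84% of all genes and 5.77% as higher. These 4 comparisons share the P0 Emcn- libraries and are not independent of each other. Against P0 Emcn+ cells, 5 members were called in lung, with Pdgfc and both receptors higher and Pdgfb and Pdgfd lower, beside 21.1% of all genes (12.6% higher and 8.48% lower). In BM MSC 5 were called as well, with Pdgfa, Pdgfc and both receptors higher and Pdgfb lower, beside 31.3% of all genes (20.1% higher and 11.3% lower).

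**Figure D1:**
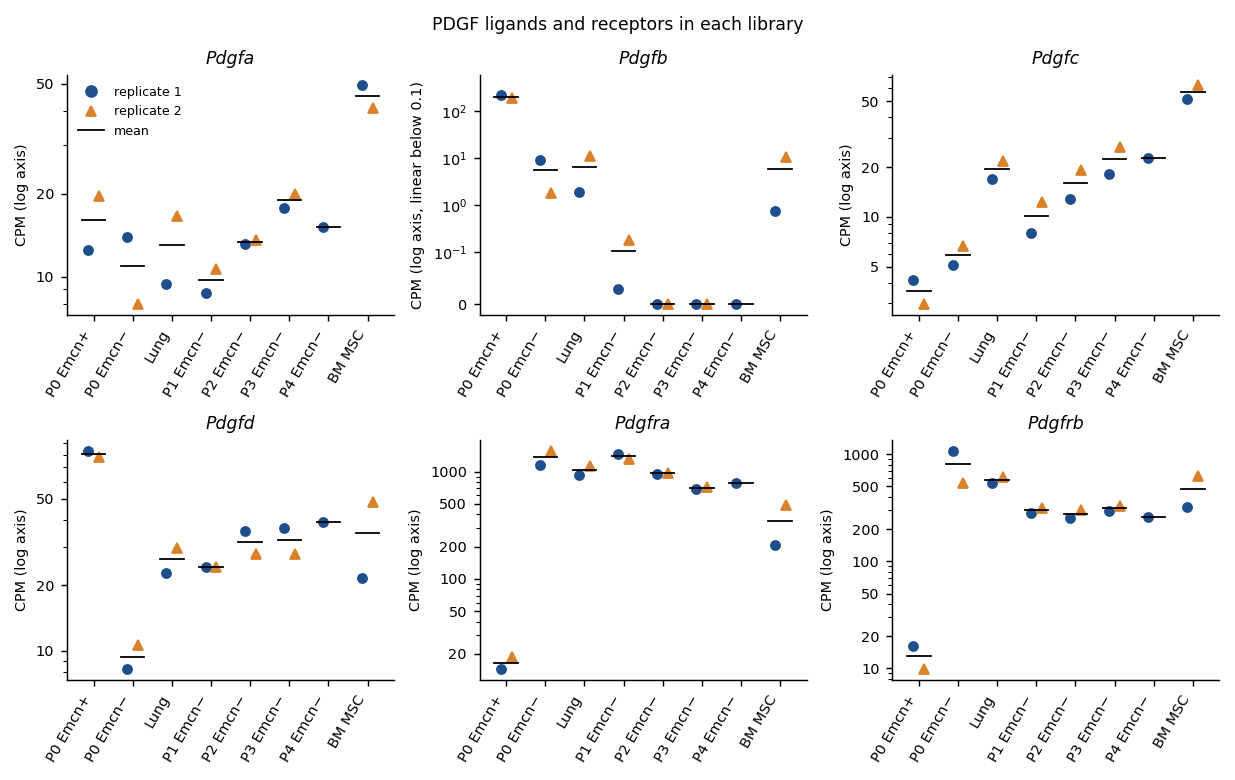
CPM of each PDGF ligand and receptor (vertical axis, log scale, for Pdgfb linear below 0.1) in each of the 15 libraries of 8 conditions (horizontal axis). Circles are first replicates, triangles second replicates and lines group means, and P4 has 1 library. Pdgfb stands at 188 and 216 CPM in P0 Emcn+ cells and at 0 in every P2, P3 and P4 library, while both receptors are lowest in P0 Emcn+ cells.

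Among the ligands, Pdgfb, which encodes the B chain, had the widest range. P0 Emcn+ libraries reached 216 and 188 CPM, whereas P0 Emcn- libraries stood at 9.21 and 1.82 CPM. Lung cells had 1.93 and 11.0 CPM and BM MSC had 0.758 and 10.8 CPM. Every P0 Emcn+ library lay above every other library, and the lung, BM MSC and P0 Emcn- libraries overlapped. In passaged cells Pdgfb was all but undetected, with 1 and 5 counts in the P1 libraries and 0 counts in all 5 libraries of P2, P3 and P4. Over 3 counts per group, these zeros allow up to 0.0466 CPM at P2, 0.0480 CPM at P3 and 0.0825 CPM at P4.

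Between the P0 populations, Pdgfb was higher in Emcn+ cells by a log2 fold change of 5.13 (SE 1.31, adjusted p = 0.0173), or 35.1-fold. Within the batch of the first replicates the log2 ratio was 4.55, and within that of the second replicates it was 6.69. The call was lost without P0 Emcn+ replicate 1 (adjusted p = 0.0508) or without P0 Emcn- replicate 2 (adjusted p = 0.0827), with log2 fold changes of 5.05 and 4.49. Against P0 Emcn+ cells, lung cells were lower by -4.97 (SE 1.30, adjusted p = 0.0176) and BM MSC by -5.09 (SE 1.30, adjusted p = 0.0120). The call in lung was lost without P0 Emcn+ replicate 1 (adjusted p = 0.0530) or lung replicate 1 (adjusted p = 0.0906), and that in BM MSC under the replicate block (adjusted p = 0.171), which adds a term for the batches.

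Set against P0 Emcn- cells, neither lung (log2 fold change 0.16, 95% interval -2.49 to 2.81) nor BM MSC (0.04, interval -2.60 to 2.68) differed in Pdgfb beyond the spread between libraries, and both intervals are wide. The 2 lung libraries even stood on opposite sides of P0 Emcn- cells, with a log2 ratio of -2.25 in one batch and 2.60 in the other. From P0 Emcn- to P1 cells the fitted log2 change was -5.69 (SE 1.75), which missed the threshold in edgeR (adjusted p = 0.0592) but passed it in DESeq2's Wald test (adjusted p = 0.0116) and, in edgeR, without P0 Emcn- replicate 2 (adjusted p = 0.0469). Because replicate 1 held 366 of the 384 counts of P0 Emcn- cells, each library was set on its own against the pooled counts of a passage. Replicate 1 was 94.4-fold higher than the P1 libraries with their 6 counts (exact 95% interval 43.0 to 259), and replicate 2, with 18 counts, was 18.6-fold higher (interval 7.08 to 57.3). Against 3 counts over the group as the limit, replicate 1 was at least 198-fold and replicate 2 at least 39.0-fold higher than P2 cells. For P3 cells these bounds were at least 192-fold and at least 37.8-fold, and for P4 cells at least 112-fold and at least 22.0-fold. In BM MSC, replicate 2 held 355 of the 382 counts. It was 111-fold higher than P1 cells (interval 50.4 to 304) and at least 232-fold higher than P2 cells, whereas replicate 1, with 27 counts, was 7.77-fold higher (interval 3.14 to 23.0) and at least 16.3-fold higher. The test of BM MSC against the mean of P1 to P3 called Pdgfb as higher (adjusted p = 0.00412), and that call was lost without BM MSC replicate 2 (adjusted p = 0.0711).

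Pdgfb and the endothelial markers were higher in the same replicate in 3 of the 4 conditions where Pdgfb was low but detected. In P0 Emcn- cells, replicate 1 had 9.21 CPM of Pdgfb beside a marker sum of 251 CPM, and replicate 2 had 1.82 CPM beside 67.1 CPM. In lung, replicate 2 had 11.0 CPM beside 554 CPM, and replicate 1 had 1.93 CPM beside 145 CPM. In BM MSC, replicate 2 had 10.8 CPM beside 339.6 CPM, and replicate 1 had 0.758 CPM beside 39.0 CPM. P1 cells ran the other way, with replicate 2 higher in Pdgfb (0.179 against 0.0297 CPM) and lower in marker sum (57.6 against 69.0 CPM). That order rests on 5 against 1 Pdgfb counts. Most of the P1 sum was Tek, Pecam1 and Kdr (means of 35.2, 13.2 and 10.1 CPM), while Cdh5 averaged 1.73 CPM. Pdgfb equalled 1.85% and 1.93% of the marker sum in P0 Emcn+ cells and 1.33% to 3.67% in P0 Emcn-, lung and BM MSC cells. In passaged cells it was at most 0.311%, but of a sum made up of other markers. Cdh5 held the most of the sum in P0 Emcn+ cells (mean 5670 CPM), and Tek, Kdr and Pecam1 in passaged cells. The sum of 8 macrophage and hematopoietic markers also stood higher in P0 Emcn+ libraries (543 and 548 CPM) than in their Emcn- counterparts (189 and 228 CPM). The sum of 5 megakaryocyte and platelet markers was at most 9.99 CPM in any library. The part of these markers in the Pdgfb differences was not tested.

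**Figure D2:**
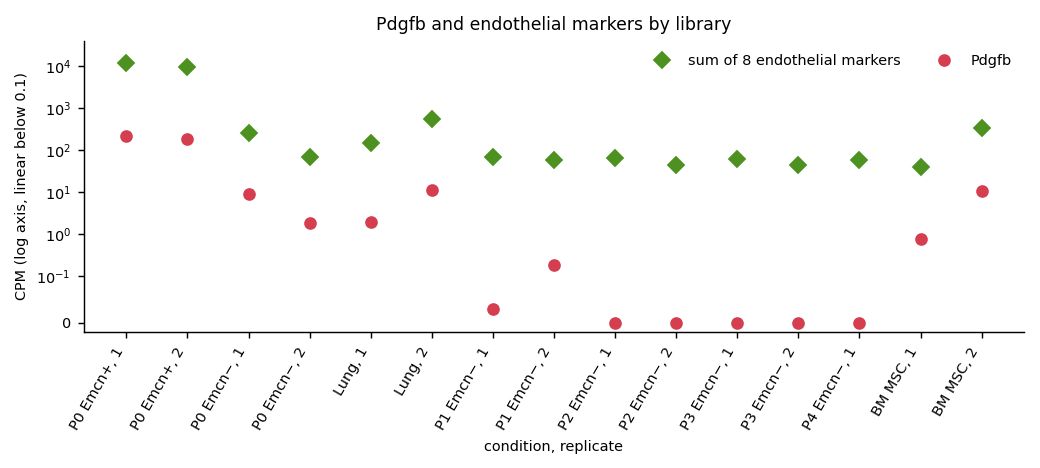
Pdgfb (circles) and the sum of 8 endothelial markers (diamonds) in CPM (vertical axis, log scale, linear below 0.1) for each library (horizontal axis). Pdgfb runs below the marker sum by a like distance in P0, lung and BM MSC libraries. It is at 0 in P2 to P4 libraries, whose marker sum of 43.1 to 65.1 CPM is mostly Tek, Kdr and Pecam1. Cdh5 had a mean of 0.453 CPM at P2 and 0.121 CPM at P3, and 0.220 CPM in the P4 library.

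Pdgfd, whose product binds mainly PDGFRβ after activation, was the other ligand that was high in P0 Emcn+ cells. Its level there was 83.2 and 77.5 CPM, against 8.21 and 10.6 CPM in P0 Emcn- cells, with no overlap. The log2 fold change was 3.14 (SE 0.35, adjusted p = 9.08e-05), or 8.83-fold, and the ratios within the 2 batches were 3.34 and 2.87. No alternative and no left-out library removed this call. Lung cells, at 22.9 and 29.7 CPM, lay between the P0 populations. They were above P0 Emcn- cells by 1.56 (SE 0.33, adjusted p = 0.0243) and below P0 Emcn+ cells by -1.58 (SE 0.32, adjusted p = 0.00343). Both values are close to the limit of 1.5. The first call was lost whichever of the 4 libraries was left out, and the second without lung replicate 1 (-1.43). With ashr shrinkage both fell under the limit, to 1.41 and -1.47.

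Passaged cells had Pdgfd at a higher level than P0 Emcn- cells, unlike Pdgfb. P1 cells had 24.4 and 24.2 CPM, P2 cells 35.5 and 27.9 CPM, P3 cells 36.5 and 27.8 CPM, and P4 cells 39.1 CPM, all above both P0 Emcn- libraries. The rise from P0 Emcn- to P1 was 1.54 (SE 0.33, adjusted p = 0.0130), and the call was lost without P0 Emcn- replicate 1 (adjusted p = 0.0998) or P1 replicate 1 (adjusted p = 0.0654). With ashr shrinkage the rise was 1.31, under the limit, so that Pdgfd was not called. BM MSC libraries were far apart, at 21.5 and 48.2 CPM. They were higher than P0 Emcn- cells by 1.98 (SE 0.33, adjusted p = 0.00171), and by 1.32 without BM MSC replicate 2, which is under the limit. Against P0 Emcn+ cells the difference was -1.16 (SE 0.32, adjusted p = 0.0121), which passed the adjusted p, as 51.5% of all genes did, but not the limit on the fold change. Ranked by mean, the order was P0 Emcn+, P4, BM MSC, P3, P2, lung, P1 and P0 Emcn-. Only the first and the last of these groups were apart from their neighbour, and the 6 groups from P4 to P1 overlapped from one to the next.

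Pdgfa, which encodes the A chain, did not separate the P0 populations. P0 Emcn+ libraries held 12.5 and 19.6 CPM, and P0 Emcn- libraries 13.9 and 7.97 CPM. These groups overlapped, with a log2 fold change of 0.56 (95% interval -0.15 to 1.28, adjusted p = 0.216), and the ratio within batches was -0.15 in one and 1.30 in the other. BM MSC had the highest level, 49.4 and 40.8 CPM, above every other library. The difference of BM MSC was 2.12 (SE 0.33, adjusted p = 0.00117) from P0 Emcn- cells and 1.55 (SE 0.32, adjusted p = 0.00286) from P0 Emcn+ cells. The latter is at the limit, and without P0 Emcn+ replicate 1 or BM MSC replicate 1 it was 1.23 or 1.38, and with ashr shrinkage 1.42.

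Lung cells had 9.44 and 16.6 CPM of Pdgfa, and the interval of their difference from P0 Emcn- cells ran from -0.43 to 1.00. P1 cells had 8.75 and 10.7 CPM, P2 cells 13.2 and 13.6 CPM, P3 cells 17.8 and 20.02 CPM, and P4 cells 15.1 CPM. In the order of means after BM MSC (P3, P0 Emcn+, P4, P2, lung, P0 Emcn- and P1), each pair of neighbours overlapped except P4 and P2, which did not.

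Pdgfc, the second ligand with a CUB domain, was lowest in P0 cells. P0 Emcn+ libraries had 4.15 and 2.98 CPM and P0 Emcn- libraries 5.11 and 6.66 CPM. The difference between them was -0.67 (95% interval -1.34 to 0.00, adjusted p = 0.118), and the ratios within batches were -0.30 and -1.16. Lung cells had 16.9 and 21.9 CPM, higher than P0 Emcn- cells by 1.80 (SE 0.30, adjusted p = 0.00869), with ratios of 1.73 and 1.72 within the 2 batches. Fitting lung and P0 Emcn- libraries alone ended this call (adjusted p = 0.0839), as did leaving out P0 Emcn- replicate 1 (adjusted p = 0.0598). Against P0 Emcn+ cells the lung value was 2.47 (SE 0.30, adjusted p = 0.000171).

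BM MSC had the most Pdgfc, 51.8 and 62.3 CPM, above all other libraries. The difference from P0 Emcn- cells was 3.38 (SE 0.31, adjusted p = 5.85e-05), or 10.4-fold, and that from P0 Emcn+ cells was 4.05 (SE 0.32, adjusted p = 7.76e-06). No alternative and no left-out library removed either call. Passaged cells lay between, since P1 libraries had 7.97 and 12.4 CPM, P2 libraries 12.9 and 19.1 CPM, P3 libraries 18.2 and 26.5 CPM and the P4 library 22.8 CPM. P1 was above P0 Emcn- by 0.96 (SE 0.30, adjusted p = 0.0505), which missed the threshold. Ranked by mean, the order was BM MSC, P4, P3, lung, P2, P1, P0 Emcn- and P0 Emcn+, with overlaps from P4 down to P2 and none between the other neighbours.

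Both receptors were low in P0 Emcn+ cells and high in every other group. Pdgfra, which encodes PDGFRα, stood at 14.4 and 18.6 CPM in P0 Emcn+ libraries but at 1147 and 1566 CPM in P0 Emcn- libraries. The log2 fold change of P0 Emcn+ over P0 Emcn- cells was -6.33 (SE 0.41, adjusted p = 3.53e-06), and within batches it was -6.32 and -6.40. Lung cells had 938 and 1122 CPM and did not differ from P0 Emcn- cells beyond the spread (-0.33, 95% interval -1.05 to 0.39). P1 cells had 1472 and 1319 CPM, and the interval of their difference from P0 Emcn- cells was -0.52 to 0.92.

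BM MSC had less Pdgfra, 209 and 491 CPM, than any other library outside P0 Emcn+. They were below P0 Emcn- cells by -1.87 (SE 0.33, adjusted p = 0.00230) and above P0 Emcn+ cells by 4.46 (SE 0.37, adjusted p = 1.07e-05). Fitting BM MSC and P0 Emcn- libraries alone ended the first call (-1.88, adjusted p = 0.0626), and so did leaving out BM MSC replicate 1 (-1.40). P2 cells had 954 and 978 CPM, P3 cells 684 and 719 CPM and P4 cells 785 CPM. By mean the order was P1, P0 Emcn-, lung, P2, P4, P3, BM MSC and P0 Emcn+, in which P1 overlapped P0 Emcn- and lung overlapped P2, and the other neighbours were apart.

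Pdgfrb, which encodes PDGFRβ, the receptor of pericytes and other mural cells, had 16.2 and 9.82 CPM in P0 Emcn+ cells. P0 Emcn- libraries had 1077 and 537 CPM, lung libraries 533 and 607 CPM and BM MSC libraries 321 and 619.8 CPM. These last 3 groups overlapped, and every one of their libraries lay far above P0 Emcn+ cells. P0 Emcn+ cells were below P0 Emcn- cells by -5.92 (SE 0.45, adjusted p = 9.10e-06), with -6.05 and -5.77 within batches. Against P0 Emcn- cells, lung gave -0.44 (95% interval -1.25 to 0.37) and BM MSC -0.70 (interval -1.51 to 0.12), neither of which was called.

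Passaged cells had a narrow range of Pdgfrb. P1 libraries had 285 and 314 CPM, P2 libraries 254 and 299 CPM, P3 libraries 297 and 329 CPM and P4 258 CPM, all below both P0 Emcn- libraries. The step from P0 Emcn- to P1 was -1.27 (SE 0.37, adjusted p = 0.0408), which passed the adjusted p, as 17.5% of all genes did, but not the limit on the fold change. Without P0 Emcn- replicate 2, the library with less Pdgfrb, it was -1.71 (adjusted p = 0.00991) and was called. By mean the order was P0 Emcn-, lung, BM MSC, P3, P1, P2, P4 and P0 Emcn+, and only the last group was apart from its neighbour.

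The receptor levels moved with the fibroblast and stromal marker sum between the P0 populations, as given above, and the part of those cells' markers in the receptor differences was not tested. Between P0 Emcn- and P1 cells the marker sum fell from 20987 and 15631 CPM to 5176 and 5853 CPM. Col1a1, Col1a2 and Col3a1 made most of that fall, with Col3a1 going from a mean of 4471 to 745 CPM. Postn also fell, from a mean of 1602 to 757 CPM, and Thy1 from 164 to 104 CPM. Dcn and Lum changed less, with means of 1793 and 1601 CPM for Dcn and 26.9 and 31.1 CPM for Lum. Pdgfra had 1147 and 1566 CPM before and 1472 and 1319 CPM after that step. BM MSC had a marker sum of 21322 and 10708 CPM together with the lower Pdgfra. The sum of 7 mural markers ran to 1271 and 1648 CPM in BM MSC. It was 350.5 and 216 CPM for P0 Emcn- libraries, 17.5 and 107 CPM for P0 Emcn+ libraries and 76.4 to 196 CPM for passaged libraries. In BM MSC most of this sum was Acta2 and Tagln, with means of 912 and 294 CPM against 75.7 and 42.9 CPM in P0 Emcn- cells. Notch3 (92.5 against 111 CPM) and Des (2.07 against 4.01 CPM) averaged less in BM MSC than in P0 Emcn- cells.

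**Figure D3:**
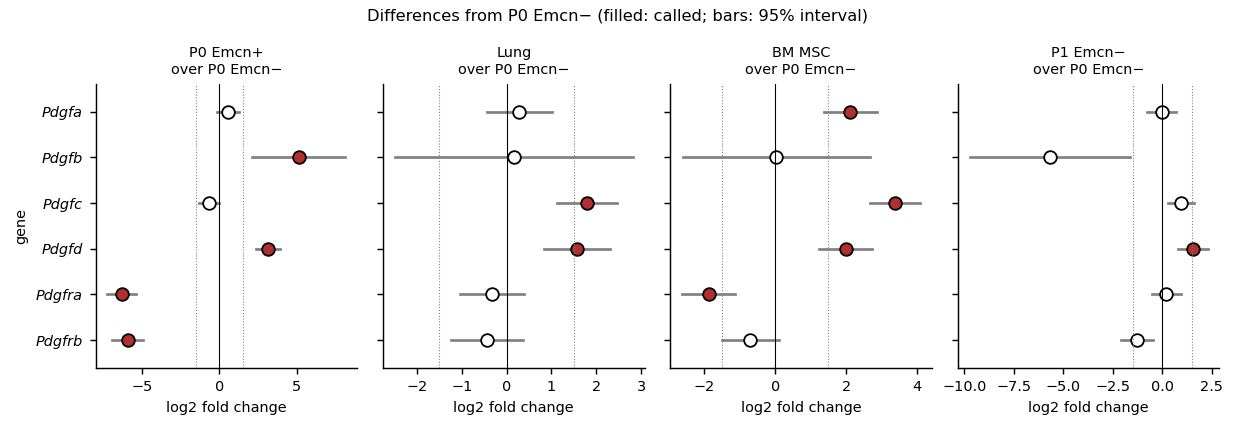
Log2 fold change (horizontal axis, a scale for each panel) of each PDGF member over P0 Emcn- cells in P0 Emcn+, lung, BM MSC and P1 cells, from edgeR. Grey bars are 95% intervals, filled points were called and dotted lines mark 1.5 in each direction. Pdgfb (5.13) and Pdgfd (3.14) stand opposite the receptors (-6.33 and -5.92) in P0 Emcn+ cells, and the interval of Pdgfb is the widest in every panel.

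BM MSC were also compared with the mean of P1 to P3, since they shared a batch with the second replicates of those passages. The test used both replicates of each passage and had no term for the batches. Same-numbered libraries of P1 to P3 correlated in their deviations from group means by 0.354 to 0.451. The SEs do not allow for that. Of the 6 members, 4 were called, with Pdgfa, Pdgfb and Pdgfc higher in BM MSC and Pdgfra lower, where 14.2% of all genes were called, 8.42% as higher and 5.81% as lower. Pdgfa differed by 1.65 (SE 0.24, adjusted p = 0.000762) and Pdgfc by 1.80 (SE 0.21, adjusted p = 0.000246). Within the shared batch these log2 ratios were 1.61 and 1.56, and without BM MSC replicate 1 the Pdgfa difference was 1.48, which is under the limit. Pdgfra differed by -1.59 (SE 0.29, adjusted p = 0.00267) and by -1.52 within the batch, and it was under the limit without BM MSC replicate 1 (-1.12) and with ashr shrinkage (-1.47). Pdgfrb (0.57, 95% interval -0.07 to 1.21) and Pdgfd (0.15, interval -0.42 to 0.72) were not called.

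Among the passages themselves, no member was called. In P3 against P1 cells, 0 of 6 members were called by edgeR, and also 0 by DESeq2's Wald test, where edgeR called 0.222% of all genes. At an unadjusted p under 0.05 there were 3 of the 6, namely Pdgfa, Pdgfc and Pdgfra. The share of all genes at that limit was not counted, here or for P4 below. Counts at that limit thus have no background beside them. Pdgfc was higher at P3 by 1.169 (SE 0.29, unadjusted p = 0.00224, adjusted p = 0.122) and Pdgfa by 1.00 (SE 0.32, unadjusted p = 0.0114, adjusted p = 0.220), while Pdgfra was lower by -0.96 (SE 0.33, unadjusted p = 0.0147, adjusted p = 0.239). In both batches each of these 3 genes moved the same way, with log2 ratios of 1.19 and 1.10 for Pdgfc, 1.03 and 0.91 for Pdgfa and -1.11 and -0.88 for Pdgfra. In some alternatives they passed the adjusted p but stayed under the fold limit. Pdgfc did so in DESeq2's Wald test (adjusted p = 0.00931) and under the replicate block in edgeR (adjusted p = 0.0496), and Pdgfa (adjusted p = 0.0476) and Pdgfra (adjusted p = 0.0496) did so in edgeR with only P1 and P3 libraries. For Pdgfd the difference was 0.45 (95% interval -0.26 to 1.15) and for Pdgfrb 0.10 (interval -0.71 to 0.91). In P4 against P1 cells, where the lone P4 library is assumed to vary like the other groups, again 0 of 6 were called by edgeR and 0 by DESeq2, beside 0.0773% of all genes. Pdgfc, at 1.24 (SE 0.34, unadjusted p = 0.00403, adjusted p = 0.189), was the 1 member under an unadjusted p of 0.05, and in DESeq2's Wald test its adjusted p was 0.0482.

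**Figure D4:**
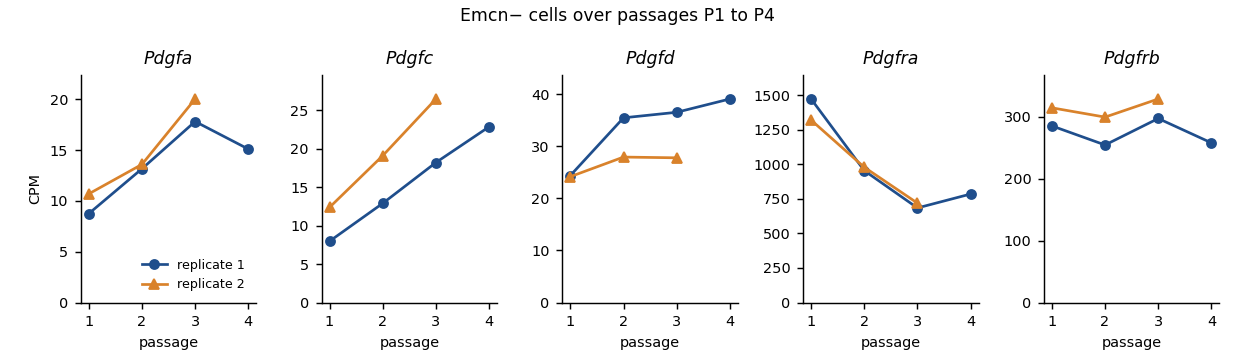
CPM (vertical axis, from 0) of 5 PDGF members in Emcn- cells by passage (horizontal axis), with a line for each replicate number, which the labels place in 1 batch each, and P4 in the batch of replicate 1. Pdgfa and Pdgfc are higher at P3 than at P1 in both batches and Pdgfra is lower, from 1472 and 1319 CPM to 684 and 719 CPM. With edgeR on all libraries and no term for the batches, these 3 differences had adjusted p of 0.122 to 0.239.

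To set ligands beside receptors, CPM was divided by the length of each gene's exons in kilobases. On this scale the ligand makeup of P0 Emcn+ cells was mostly Pdgfb, with 62.4% and 58.9% of the sum of the 4 ligands, and Pdgfd, with 31.8% and 32.1%. In P0 Emcn- cells Pdgfa (43.4% and 33.4%) and Pdgfd (25.3% and 43.9%) held the most. Lung cells had 51.6% and 43.5% Pdgfd. In passaged cells Pdgfd held 43.1% to 63.9% of the sum in every library, and Pdgfb at most 0.318%. BM MSC had 47.9% and 30.3% Pdgfa and 30.9% and 28.4% Pdgfc, the largest share of Pdgfc in any group. Pdgfd held 20.6% and 35.4% there, and in replicate 2 that was the largest share.

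The sum of the 2 receptors per kilobase stood at 0.0529 and 0.0475 times that of the 4 ligands in P0 Emcn+ cells and at 30.2 and 33.2 times in P0 Emcn- cells. In lung it was 13.6 and 10.3 times. P1 libraries gave 16.4 and 13.9 times, P2 libraries 7.86 and 8.97 times, P3 libraries 5.87 and 6.45 times and the P4 library 5.77 times, and BM MSC gave 2.41 and 3.75 times. Ligands thus exceeded receptors in the P0 Emcn+ libraries alone, and the replicates of any pair of neighbouring passages from P1 to P3 did not overlap. The ratio of Pdgfra to Pdgfrb per kilobase was 2.82 and 2.29 in P1 libraries, 2.05 and 1.79 in P2 libraries, 1.26 and 1.20 in P3 libraries and 1.66 in P4. It was below 1 in both BM MSC libraries, at 0.356 and 0.433. In P0 Emcn- (0.582 and 1.59), lung (0.962 and 1.01) and P0 Emcn+ cells (0.485 and 1.03) it straddled 1. Where it crosses 1 depends on the lengths used, those of all annotated exons together (10024 bases for Pdgfra and 5478 for Pdgfrb). In CPM alone, Pdgfra was above Pdgfrb in both lung and both P0 Emcn- libraries. With 2 libraries a group these ratios are values without a test.

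**Figure D5:**
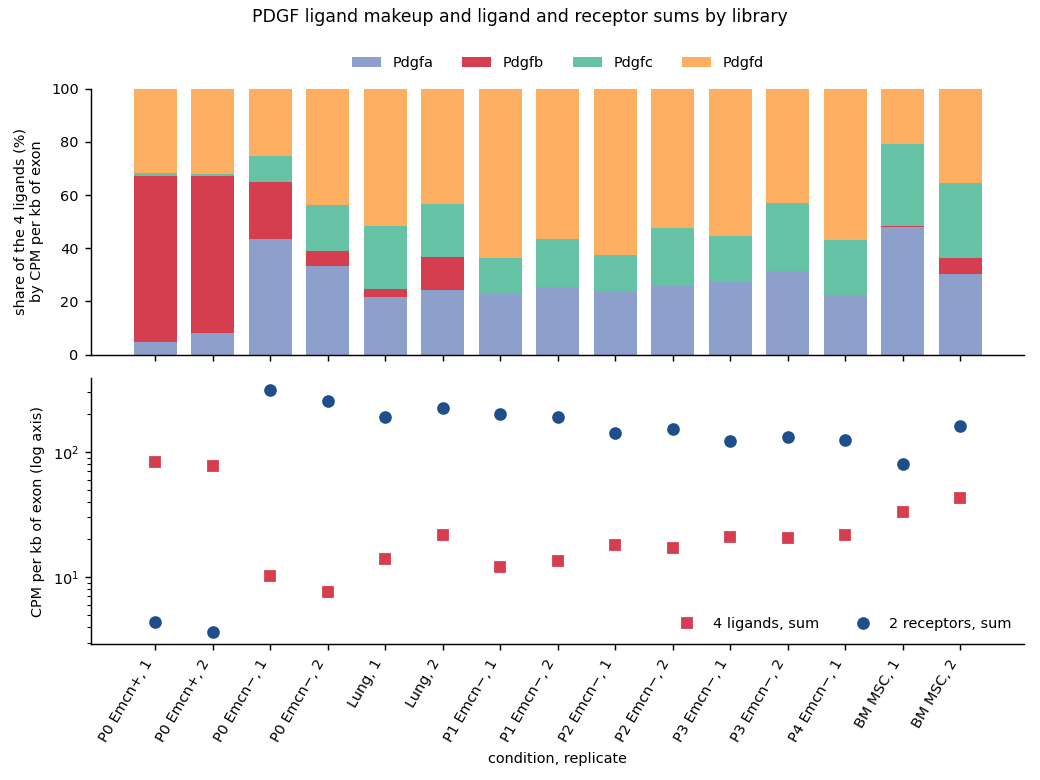
Upper panel, share (%) of each ligand in the sum of the 4 PDGF ligands by CPM per kilobase of exon for each library. Lower panel, sums of the ligands (squares) and of the receptors (circles) on a log axis, in which the ligand sum lies above the receptor sum in the 2 P0 Emcn+ libraries only.

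Other genes of the pathway were counted in 4 lists, beside 19.2% of all genes called between the P0 populations and 8.84% between P1 and P0 Emcn- cells. With 4 to 11 genes a list, the counts are a description. Of 6 genes for ligand activation and co-receptors, 1 was higher and 2 were lower in the Emcn+ cells of P0 than in the Emcn- cells, with a median log2 fold change of -0.17 against -0.06 over all genes tested. Plau (urokinase), a protease that can activate PDGF-D, had 423 and 321 CPM against 139 and 129.8 CPM, a difference of 1.501 (SE 0.33, adjusted p = 0.00598) that sits on the limit. Plat, the tissue plasminogen activator, which can activate PDGF-C, was lower, at 27.1 and 11.7 CPM against 97.4 and 74.8 CPM (-2.11, SE 0.32, adjusted p = 0.000630). Lrp1, a co-receptor of PDGFRβ, was lower as well, at 172 and 186 CPM against 7073 and 5489 CPM (-5.10, SE 0.31, adjusted p = 2.79e-06).

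Of 11 genes of the signal relay, 1 was called between the P0 populations, with a list median of 0.13. It was Plcg1 (phospholipase C gamma), with 507 and 414 CPM in Emcn+ libraries against 167 and 149 CPM in Emcn- libraries (1.58, SE 0.15, adjusted p = 3.95e-05). Among 5 genes that attenuate the signal, Ptprj, a receptor phosphatase, was lower in P0 Emcn+ cells (15.8 and 15.6 against 48.1 and 50.7 CPM, -1.62, SE 0.20, adjusted p = 0.000187), and the list median was -0.05. Of 4 relatives of the receptors, Kit, the stem cell factor receptor, was higher with 703 and 586 CPM against 23.3 and 1.82 CPM (5.64, SE 1.03, adjusted p = 0.00197). Pdgfrl, a receptor-like gene without a kinase domain, was lower with 0.127 and 0.155 CPM against 4.91 and 3.03 CPM (-4.78, SE 0.66, adjusted p = 0.000373), and the list median was 0.72.

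From P0 Emcn- to P1 cells, 1 of the 6 activation and co-receptor genes was called higher and none lower, with a median of -0.45 against 0.02 over all genes. This gene was St14 (matriptase), a protease that can activate PDGF-D, with 0.277 and 0.202 CPM at P0 and 2.59 and 2.08 CPM at P1 (3.33, SE 0.62, adjusted p = 0.00679). In P0 Emcn- replicate 2 its level was under the limit of 3 counts, 0.303 CPM, so the fold change starts from near the floor. By P3 St14 had 12.5 and 9.99 CPM. Of the relay and attenuation genes 0 were called by edgeR and 0 by DESeq2's Wald test in this comparison, with medians of 0.18 and -0.28. The share of all genes at an unadjusted p under 0.05 was not counted. At that p there were 3 relay genes and 1 attenuation gene, all of them under the limit on the fold change. They were the adaptor Nck1 (0.77), the phosphoinositide 3-kinase subunits Pik3ca (0.52) and Pik3r1 (1.10) and the phosphatase Ptpn1 (-1.06), which were chosen after their values were seen. Kit was the 1 relative called, and it was lower, at 0.178 and 0.287 CPM in P1 cells (-5.68, SE 1.25, adjusted p = 0.0142).

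For each member, the genes with the most similar pattern were those with the highest Pearson correlation of log2 CPM over the 8 condition means, among 10811 genes. They were Cdh5 (r = 0.991), Kit (0.990) and Psmd3 (0.990) for Pdgfb and Trip12 (0.985), Tmem47 (0.980) and Zfp52 (0.976) for Pdgfd. Sel1l (0.993), Gpr107 (0.974) and Bag3 (0.971) were closest to Pdgfa, and Snx7 (0.996), Slc33a1 (0.987) and Ldlrad4 (0.980) to Pdgfc. For the receptors they were Syde2 (0.998), Olfml1 (0.997) and Vcan (0.996) for Pdgfra and Scarf2 (0.994), Ror2 (0.994) and Smarcd3 (0.993) for Pdgfrb. These correlations describe 8 means that share libraries and batches, and the highest values among many genes are picked by this rule.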

How the data were processed

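Bulk RNA-seq libraries of 15 samples in 8 conditions were analysed, with conditions, replicate numbers and batches taken from the sample labels. Per the study's methods, reads went through the nf-core RNA-seq workflow, with STAR alignment to GRCm38, Salmon quantification against Ensembl transcripts and a per-gene merge by tximport. The authors deposited the result as whole-number counts without normalization. How the values became whole numbers and whether counting used strand are not given in the sources used here. Of 44674 gene identifiers, 44118 were found in GENCODE M21, which gave positions and exon lengths, and 8 rows have no symbol. The scRNA-seq of the study was not analysed here.

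CPM was computed on total counts. Tests used edgeR 4.0.16 under R 4.3.3 (TMM factors, filterByExpr with a minimum count of 10 and a minimum total of 15, quasi-likelihood test, 1 coefficient per condition), which left 19401 genes, 7 residual and 3.07 prior degrees of freedom. The SE is the log2 fold change divided by the square root of F, and 95% intervals use the t distribution at each gene's total degrees of freedom. No fitted fold change is given for Pdgfb against groups at 0 counts. Scripts were tested on simulated counts. Members and lists were chosen with earlier results of these data known. Named besides the 6 members are list genes called in P0 Emcn+ against P0 Emcn- or P1 against P0 Emcn- cells, markers used as checks, and for each member the 3 genes most alike over the condition means, with at least 10 CPM in some mean.

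No replicate pair was a repeat of 1 library (chi-square of their counts over its degrees of freedom, 42.5 to 141). The study's reporting describes independent biological samples. Same-numbered libraries share a batch by the labels among P0 and lung, and again among P1 to P3. Their deviations from group means correlated by 0.139 to 0.209 and by 0.354 to 0.451, and between same-numbered libraries of different batches by -0.104 to 0.127. The replicate block adds a term for each pair of batches. Other alternatives were DESeq2 1.42.0 with and without ashr 2.2.63, RLE factors, other filters, only the compared groups, adjusted p alone and each library left out. DESeq2 on edgeR's filtered genes and the Pdgfb ratios of single libraries were added after seeing the data.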

Additional observations from a re-analysis of the deposited data

How the results depend on the processing

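Of 510 recomputed member fold changes with all libraries, 487 kept their direction and their side of the threshold, 14 were no longer called, 7 were newly called and 2 reversed. Of 214 with a library left out these numbers were 180, 18, 3 and 13. The 2 reversals were of Pdgfb in BM MSC against P0 Emcn- cells, uncalled throughout, at -0.00841 without the filter and -1.09 under the replicate block. With a library left out that value ran from -2.84 to 1.72.

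In lung against P0 Emcn- cells, 0 members were called with only the compared groups, 1 with ashr shrinkage, 1 with ashr on the filtered genes (added after seeing the data) and 0 to 1 with a library left out. In P1 against P0 Emcn- cells, with ashr the 1 member called was Pdgfb (-2.89) in place of Pdgfd (1.31). In that comparison 2 were called by the adjusted p alone (Pdgfd and Pdgfrb), and 2 (Pdgfd and Pdgfb) without the filter and by DESeq2's Wald test on all or on the filtered genes, and 0 to 3 with a library left out. Leaving out a library gave 3 to 5 in lung against P0 Emcn+ cells and 2 to 4 in BM MSC against P1 to P3. The replicate block ended 1 member call, that of Pdgfb in BM MSC against P0 Emcn+ cells (-6.17, adjusted p = 0.171 in edgeR), and no other.

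With a library left out, log2 fold changes that crossed 0 were all uncalled. In lung against P0 Emcn- cells they ran from -0.15 to 0.77 for Pdgfa, -1.53 to 1.86 for Pdgfb and -0.87 to 0.16 for Pdgfrb, and in lung against P0 Emcn+ cells from -0.72 to 0.062 for Pdgfa. In P1 against P0 Emcn- cells they ran from -0.39 to 0.44 for Pdgfa and -0.011 to 0.42 for Pdgfra, and in BM MSC against P1 to P3 from -0.51 to 0.60 for Pdgfd.

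Over all genes, the adjusted p alone raised the calls from 3725 to 6609 in P0 Emcn+ against P0 Emcn- cells, from 4086 to 7209 in lung and from 6082 to 9996 in BM MSC against P0 Emcn+ cells, from 3630 to 6853 in BM MSC and from 1715 to 3387 in P1 against P0 Emcn- cells, and from 2761 to 6206 in BM MSC against P1 to P3. With only the compared groups, calls against P0 Emcn- cells fell from 743 to 145 in lung, from 3630 to 2396 in BM MSC and from 1715 to 968 in P1. P1 against P0 Emcn- cells had 1901 calls without the filter. By DESeq2's Wald test on all and on the filtered genes it had 1936 and 1945, and with ashr 1384 and 1421. Lung against P0 Emcn- cells had 861 and 874 with ashr. Leaving out P0 Emcn- replicate 1 gave 455 and lung replicate 1 gave 406 in lung. For P1 it was 854 without P0 Emcn- replicate 1, and 805 and 930 without P1 replicates 1 and 2. In P3 against P1 cells the 43 calls became 170 without the filter, 106 under the block, 153 with only the compared groups, 305 and 303 by DESeq2's Wald test, 149 and 150 with ashr, and 0, 0 and 3 without P1 replicate 2 or P3 replicates 1 and 2. In P4 against P1 cells the 15 calls became 146, 26, 325, 274 and 275, and 153 and 155 under the same settings, and 4 without P1 replicate 2. The causes were not tested. CPM on TMM-scaled totals was 0.923 to 1.08 times that on total counts.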
